A study of Mus musculus with 16 samples.

Results

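The insulin-like growth factor 2 (IGF2) axis and a small set of imprinted growth genes were followed in H295R tumours after 28 days of oral treatment. The members were the 10 genes whose human RefSeq identifiers had been listed for this purpose: IGF2 (NM_000612), H19 (NR_002196), CDKN1C (NM_000076), DLK1 (NM_003836), IGF1R (NM_000875), IGF2R (NM_000876), IGFBP2 (NM_000597), IGFBP4 (NM_001552), IGFBP5 (NM_000599) and IGFBP6 (NM_002178). All 10 were on the array, as 12 probes, among 29094 identifiers in all. The scanner files give identifiers only, so each symbol is that of the list.

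IGF2 is a fetal growth factor that signals through the receptor IGF1R and, in one isoform, the insulin receptor. IGF2R has no growth signal of its own and carries IGF2 to the lysosome, while the IGF binding proteins hold the ligand in the extracellular space. In most tissues IGF2 is transcribed from the paternal allele and its neighbours H19 and CDKN1C from the maternal one, and high IGF2 RNA is a well-known feature of adrenocortical carcinoma.

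H295R is a steroid-producing human adrenocortical carcinoma line, so the tumours here come from 1 cell line. The hosts were male SCID mice, an immunodeficient strain without mature lymphocytes that still has its own vessels, fibroblasts and macrophages. Control animals received corn oil, and the others received mitotane (an adrenolytic drug), 9-cisRA (9-cis retinoic acid, a ligand of the nuclear receptors RAR and RXR) or both agents (combined). The labels give no age, allele or dose, and no statement that each array came from a separate mouse, so the spread between arrays may in part be technical.

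Slide and position were read from number codes in the sample titles, which do not name them as such. On this reading each of 4 slides held 1 array of each group, and replicate numbers are those of the slides. Scanner data were used for 15 arrays: combined treatment had replicates 1, 2 and 4, and every other group had all 4. The 9-cisRA array lay at position 4 of every slide, so this treatment and the place on the slide cannot be told apart. Control replicate 4 stood apart from the rest: its 75th percentile of signal was an intensity of 224.2, against 551.5 to 1061 on the other 14 arrays, and its median Pearson r with the other arrays was 0.874, against 0.977 to 0.99 (across transcripts, which are not independent). Member changes against control are therefore given with and without it. Combined replicate 4 had the lowest r of the other 14 arrays (0.977), the fewest probes well above background (57.9%) and the most outlier spots (589). All 11 adrenocortical markers (NR5A1, STAR, CYP11A1 and others) were on the array, and 10 or 11 of them were well above background on each array.

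A level below is the log2 signal of a probe minus the log2 of the array's 75th percentile, so that 0 is the percentile itself. Levels of different probes are not comparable. A change is a difference of group means on the log2 scale with its standard error (SE) from one limma fit over all arrays, adjusted by Benjamini-Hochberg over 20216 transcripts. Of the 10 genes, 8 were tested. IGFBP4 and IGFBP5 were not well above background on every array of any group and were left out of the test.

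No member passed an adjusted p of 0.05 in any of the 7 comparisons made. Neither did any other transcript, with 0 of 20216 (0%) in each comparison. At an unadjusted p of 0.05, 1 of the 8 members was reached for 9-cisRA against control, where 3.51% of all transcripts were, and 1 for the interaction, where 3.71% were. The member in both cases was IGFBP6. None of the 8 was reached for mitotane or combined against control, where 6.04% and 13.8% of all transcripts were. The same held for combined against mitotane (4.75%), combined against 9-cisRA (9.47%) and mitotane against 9-cisRA (4.84%). Leaving out control replicate 4, H19 and IGFBP6 were reached for 9-cisRA against control (4.34% of all transcripts), and 0 of 8 for the interaction (6.94%).

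The groups also overlapped for most members. They did not overlap, in either direction, for 1 of 8 members in 9-cisRA against control (2.39% of all transcripts) and 1 of 8 in combined against 9-cisRA (16.4%), again IGFBP6. The latter holds for the 3 combined arrays with scanner data, and not once combined replicate 3 is read in the value table. The count was 0 of 8 for mitotane against control (4.24%), combined against control (15.2%), combined against mitotane (11%) and mitotane against 9-cisRA (4.67%).

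**Figure D1:**
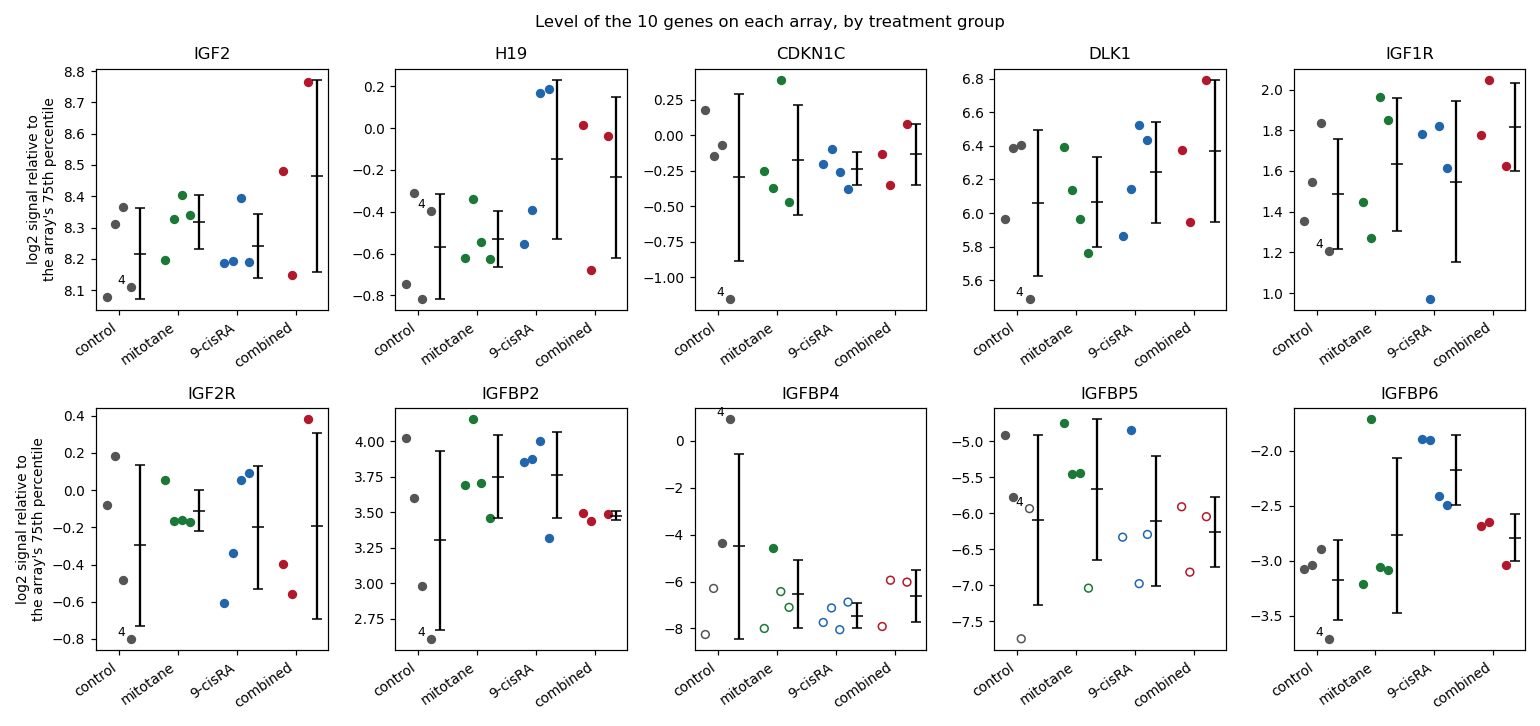
Log2 signal relative to the array's 75th percentile (y) for the 10 genes by treatment group (x), with 1 point per array in replicate order, open where not well above background; bars are mean ± SD, the number 4 marks control replicate 4, and each panel has its own scale. IGF2 stays between 8.08 and 8.76 on all 15 arrays, IGFBP6 under 9-cisRA lies above all controls, and IGFBP4 is at 0.92 on control replicate 4 and under -4 elsewhere.

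The ligand was bright in all groups, and combined replicates 1 and 4 read above every array of the other groups. The IGF2 probe (A_23_P150609) read 8.08, 8.31, 8.37 and 8.11 in control replicates 1 to 4. It read 8.20, 8.33, 8.40 and 8.34 under mitotane, and 8.19, 8.19, 8.39 and 8.19 under 9-cisRA. Combined replicates 1, 2 and 4 read 8.48, 8.15 and 8.76. The groups overlapped throughout, and the whole range over 15 arrays was 0.69. The change against control was 0.10 ± 0.14 (SE) for mitotane, 0.02 ± 0.14 for 9-cisRA and 0.25 ± 0.15 for combined treatment. The 95% interval was -0.28 to 0.33 for 9-cisRA and -0.08 to 0.58 for combined treatment, so a change of 1 log2 unit, or 2-fold, lies outside both. Without control replicate 4 the changes were 0.07, -0.01 and 0.21. Among the 3 combined arrays with scanner data, the combined value rested largely on replicate 4, and was 0.10 without that array. In the value table combined replicate 3, at 0.443, was about as high for IGF2 as combined replicate 4, at 0.429. The highest array of the other groups was at 0.078 there. No IGF2 spot was saturated, but on all 15 arrays its signal was taken from the low-gain scan and scaled up by the extraction software.

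A second IGF2 probe (A_23_P421379) gave changes of 0.26 ± 0.25, 0.11 ± 0.25 and 0.16 ± 0.27 in the same order. It was lowest on control replicate 4, at -0.39, against 0.24 to 1.02 on the other arrays. Leaving that array out, a setting chosen after seeing the data, turned all 3 differences negative, at -0.005, -0.15 and -0.10. Both IGF2 probes correlated at r = 0.54 over 15 arrays that share slides and scaling, and at r = 0.50 without control replicate 4. Among 72 tested members and listed genes, those whose levels ran most like IGF2 over 15 arrays were PAPPA, a protease that cleaves IGF binding proteins (r = 0.74), IGF2BP1, an RNA-binding protein that binds IGF2 mRNA (r = 0.66), and DLK1 (r = 0.64). Without control replicate 4 these were 0.75, 0.63 and 0.59, and the 3 genes most like IGF2 were then the imprinted non-coding RNA MEG3 (r = 0.82), PAPPA and insulin, INS (r = 0.66). MEG3 had r = 0.06 and INS r = 0.28 over all 15 arrays, so much of the order changed with that array, while PAPPA stayed near the top. IGF2 and DLK1 were both highest on combined replicate 4, at 8.76 and 6.79. The PAPPA change for combined against control fell from 0.62 to 0.25 without that array. No likeness to IGF2, that of PAPPA included, was computed without it.

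H19, a non-coding RNA whose locus neighbours IGF2, was higher on some arrays that had received 9-cisRA. It read -0.74, -0.31, -0.82 and -0.40 in control and -0.62, -0.34, -0.55 and -0.62 under mitotane. Under 9-cisRA it read -0.55, -0.39, 0.17 and 0.19, and -0.68 to 0.01 under combined treatment. The latter 2 groups overlapped with control. The change was 0.42 ± 0.21 for 9-cisRA against control (adjusted p = 0.744, limma), 0.33 ± 0.23 for combined and 0.04 ± 0.21 for mitotane. H19 was the member with the smallest p for combined against mitotane, at 0.30 ± 0.23 (adjusted p = 1, limma). Unlike most members, H19 was not low on control replicate 4, and without that array the 9-cisRA change was 0.48 (adjusted p = 0.98, limma), the combined change 0.39 and the mitotane change 0.09.

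CDKN1C, an imprinted inhibitor of cyclin-dependent kinases, differed mainly through 1 control array. Its level was 0.18, -0.15, -0.07 and -1.15 in control replicates 1 to 4, while the other 11 arrays lay between -0.47 and 0.39. The changes were 0.12 ± 0.26, 0.06 ± 0.26 and 0.16 ± 0.28 for mitotane, 9-cisRA and combined treatment. Without control replicate 4 all 3 turned negative, at -0.16, -0.22 and -0.12, and none passed.

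DLK1, a paternally expressed membrane protein related to Notch ligands and present in the adrenal cortex, was also low on control replicate 4. It read 5.96, 6.39, 6.41 and 5.49 in control, 5.76 to 6.39 under mitotane, 5.86 to 6.52 under 9-cisRA and 5.95 to 6.79 under combined treatment, so that all groups overlapped. Its changes were 0.002 ± 0.24, 0.18 ± 0.24 and 0.31 ± 0.26, or -0.19, -0.01 and 0.12 without control replicate 4. The combined change was 0.10 without combined replicate 4. A second DLK1 probe (A_33_P3217559) correlated with the first at r = 0.88 over 15 arrays, or 0.83 without that control, and gave changes of 0.10, 0.25 and 0.04. With that control left out, its differences were -0.12, 0.03 and -0.18.

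Both receptors were measured well above background on all 15 arrays. IGF1R, the signalling receptor, read 1.36, 1.55, 1.84 and 1.21 in control and 1.78, 2.05 and 1.62 under combined treatment. It lay between 1.27 and 1.96 under mitotane and between 0.97 and 1.82 under 9-cisRA. Its change was 0.33 ± 0.24 for combined against control (adjusted p = 0.546, limma), 0.15 ± 0.22 for mitotane and 0.06 ± 0.22 for 9-cisRA. In the same order these were 0.24, 0.05 and -0.03 without control replicate 4. Within slides 1, 2 and 4 combined exceeded control on 3 of 3, by 0.45 on average (SD 0.05). On slide 3, read in the value table, combined minus control was -0.38.

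IGF2R, the clearance receptor, had its largest SD in the combined group (0.50, against 0.43 in control), at -0.40, -0.56 and 0.38. Controls read -0.08, 0.18, -0.48 and -0.80, mitotane arrays -0.17 to 0.05 and 9-cisRA arrays -0.61 to 0.09. The changes were 0.18 ± 0.25, 0.09 ± 0.25 and 0.10 ± 0.27, and 0.02, -0.07 and -0.07 without control replicate 4. In an alternative fit with array weights, which gave control replicate 2 a weight of 8.8 and control replicate 4 one of 0.04, IGF2R was lower under combined treatment by -0.51 (adjusted p = 0.0203, limma). In that fit 5788 of 20216 transcripts passed for this comparison, so a call there was not particular to IGF2R.

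**Figure D2:**
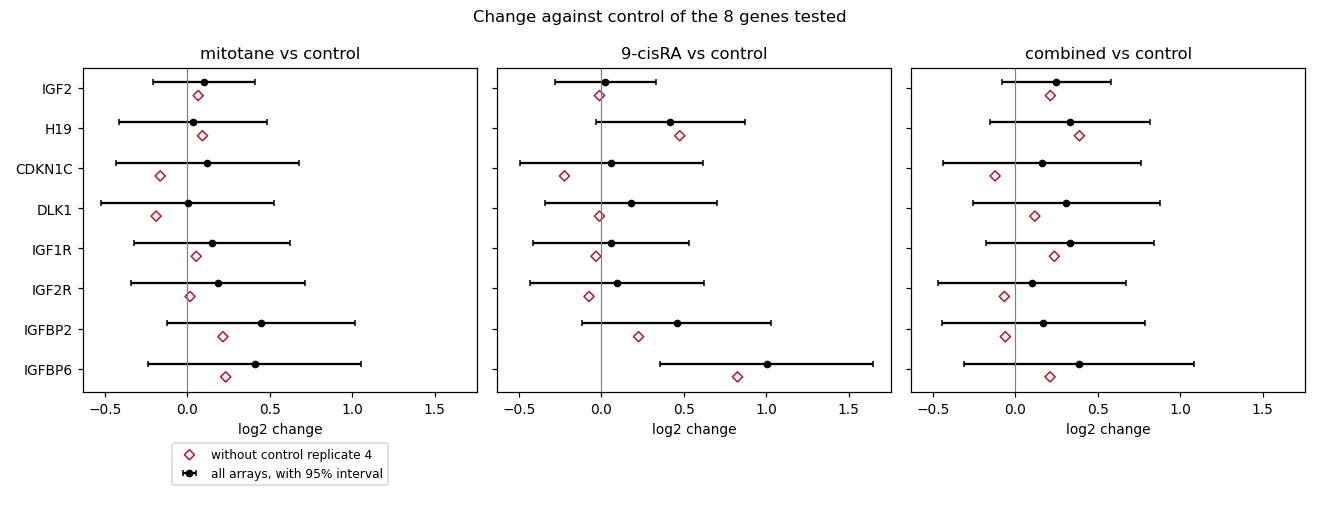
Log2 change against control (x) of the 8 tested genes (y) for mitotane, 9-cisRA and combined treatment; black points with bars are the estimate over all arrays and its 95% interval, and open diamonds the estimate without control replicate 4. All 24 black points lie at or above 0, while 10 of the 24 diamonds lie below 0, and the IGFBP6 interval for 9-cisRA (0.36 to 1.65) is the one that leaves out 0.

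The signs of these changes share their controls. All 8 changes were positive for each treatment, where 61.5%, 53.9% and 58.7% of all transcripts were positive for mitotane, 9-cisRA and combined treatment. Without control replicate 4, 6, 3 and 5 of the 8 were positive, against 64.4%, 53.6% and 60.9% of all transcripts. The median member change was 0.13, 0.14 and 0.28, and 0.06, -0.01 and 0.17 without that array, while the median over all transcripts was 0.09, 0.03 and 0.09 with all arrays and 0.08, 0.02 and 0.08 without it.

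**Figure D3:**
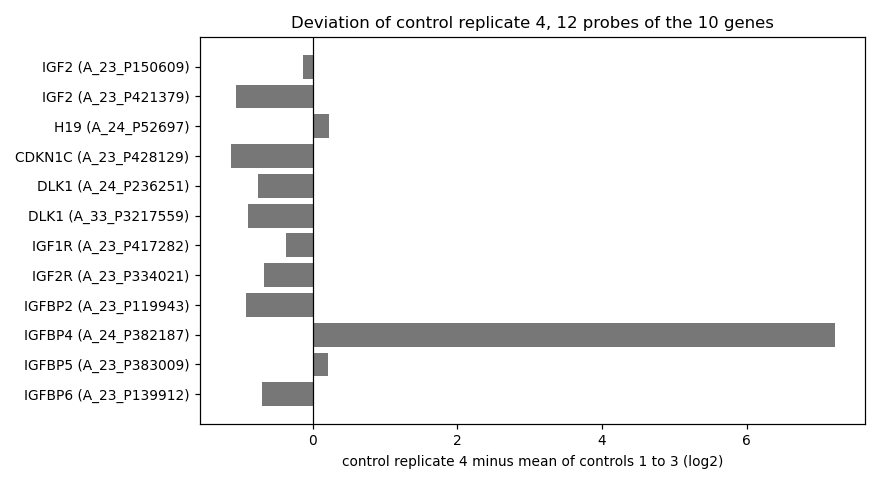
Difference in log2 level between control replicate 4 and the mean of control replicates 1 to 3 (x) for the 12 probes of the 10 genes (y). IGFBP4 stands 7.22 higher, H19 and IGFBP5 about 0.2 higher, and the other 9 probes 0.14 to 1.14 lower.

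Among the tested members, IGFBP6 showed the largest change against control. IGFBP6 binds IGF2 with a preference over IGF1 and is known as a retinoid-inducible gene in several cell types. Its level was -3.07, -3.03, -2.89 and -3.71 in control, and -1.89, -1.90, -2.41 and -2.49 under 9-cisRA. All 4 of the 9-cisRA arrays lay above all 4 controls, as did 1.67% of transcripts in this comparison. Mitotane arrays read -3.21, -1.72, -3.06 and -3.08, and combined arrays -2.68, -2.65 and -3.04. Both of these groups overlapped with control.

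The IGFBP6 change for 9-cisRA against control was 1.00 ± 0.30 (SE), 2.00-fold, with a 95% interval of 0.36 to 1.65. It did not pass (adjusted p = 0.744, limma). Without control replicate 4 it was 0.83 ± 0.30 (adjusted p = 0.98, limma). Within slides 1 to 4 the 9-cisRA array exceeded its control by 1.18, 1.13, 0.48 and 1.22. An exact two-sided sign-flip test of these 4 differences gave p = 0.125, the smallest it can give.

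The other groups gave smaller IGFBP6 changes. The change against control was 0.41 ± 0.30 for mitotane and 0.39 ± 0.33 for combined treatment, and 0.23 and 0.21 without control replicate 4. Without mitotane replicate 2 the mitotane value was 0.06. The 3 combined arrays lay below all 9-cisRA arrays, with a difference of -0.61 ± 0.33 (adjusted p = 0.611, limma). In the value table combined replicate 3 was at 0.544, inside the 9-cisRA range of 0.304 to 0.921, so that the groups overlapped there, and the difference was -0.51. Mitotane against 9-cisRA gave -0.59 ± 0.30 (adjusted p = 1, limma). The interaction, or combined minus mitotane minus 9-cisRA plus control, was -1.03 ± 0.44 (adjusted p = 0.965, limma), and -0.85 without control replicate 4. So a difference between the response to 9-cisRA with and without mitotane was not called.

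Fibroblast marker levels were also higher under 9-cisRA than in control. Of the 4 listed (COL1A1, COL1A2, COL3A1 and DCN), 3 or 4 were well above background on each array, and COL3A1 on 4 of the 15 arrays. Their summed level was 4.71 to 4.89 in control, 5.30 to 6.99 under 9-cisRA, 5.70 to 5.97 under combined treatment and 3.32 to 6.40 under mitotane. Such a sum is set by the brightest probes. COL3A1, with a mean of -7.63 in control replicates 1 to 3 against 3.30 for COL1A1, adds little to it. The mitotane array with the high IGFBP6 level, replicate 2, was also the mitotane array with the highest marker sum, at 6.40 against 3.32 to 4.50 on the other 3. For 9-cisRA against control the changes were 1.18 ± 0.59 for COL1A1, 1.28 ± 0.53 for COL1A2 and 0.80 ± 0.51 for DCN (each with adjusted p = 0.744, limma). For combined treatment, where IGFBP6 overlapped with control, they were 1.35, 0.97 and 0.54, and all 3 marker sums lay above the controls. Of all transcripts, 15.2% did not overlap in either direction for combined against control, and 2.39% for 9-cisRA against control. The other 3 mitotane arrays had marker sums below all controls, with IGFBP6 between -3.21 and -3.06. The red blood cell marker HBA2 had a difference of -1.58 ± 0.70 for 9-cisRA against control (adjusted p = 0.744, limma). The summed level of HBA2 and HBB was 4.12 to 5.90 under 9-cisRA, below all controls (6.33 to 7.32), with HBB not well above background on any array. The part of fibroblast or blood RNA in the IGFBP6 result was not tested, and in bulk tumours fewer cells of a type and less RNA per cell cannot be told apart. Whether these human probes also bind mouse RNA was not tested.

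**Figure D4:**
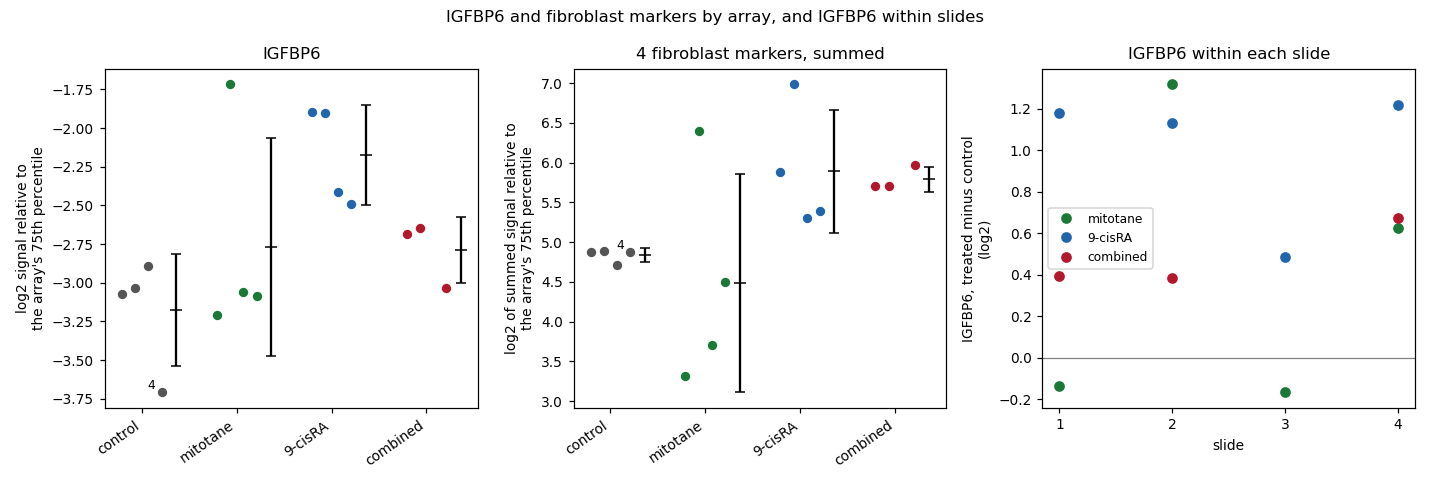
Left, IGFBP6 level and, middle, the log2 of the summed signal of 4 fibroblast markers, both relative to the array's 75th percentile, 1 point per array with mean ± SD by group; right, IGFBP6 in the treated minus the control array of the same slide (log2). Mitotane replicate 2 is the highest of its group in the left and middle panels, and 9-cisRA exceeds control on all 4 slides.

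IGFBP2, which like the other binding proteins sequesters IGF and is abundant in fetal and tumour tissue, was read from 10 spots of 1 probe. It read 4.02, 3.60, 2.98 and 2.61 in control, 3.69, 4.15, 3.70 and 3.46 under mitotane, and 3.86, 3.87, 4.00 and 3.31 under 9-cisRA. Combined arrays lay close together, at 3.49, 3.44 and 3.49. Controls spread over more than 1 log2 unit and overlapped with every other group. The changes were 0.45 ± 0.27 for mitotane (adjusted p = 0.713, limma), 0.46 ± 0.27 for 9-cisRA (adjusted p = 0.744, limma) and 0.17 ± 0.29 for combined treatment. Without control replicate 4 they were 0.22, 0.23 and -0.06.

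IGFBP4 and IGFBP5 were mostly at background. IGFBP5 was well above background on 6 of 15 arrays (2 of 4 control, 3 of 4 mitotane, 1 of 4 9-cisRA and 0 of 3 combined), with levels from -7.75 to -4.74, and no bound on a fold could be set. IGFBP4 was well above background on 3 arrays, namely control replicates 3 and 4 at -4.35 and 0.92 and mitotane replicate 2 at -4.58. No array given 9-cisRA alone, and none of the 3 combined arrays with scanner data, had it well above background, with measured means of -7.45 and -6.63 against -4.50 in control. Combined replicate 3 is not in these means. In the value table it was at 1.96, near mitotane replicate 2 at 2.08 and control replicate 3 at 2.32. Set against the lowest signal well above background, the control mean was 2.93-fold higher for 9-cisRA and 1.85-fold higher for combined. Only 2 of the 4 controls were well above background and the others entered at their measured values, so these folds are not strict lower bounds. Both rest on control replicate 4, and without it control was not higher by this measure. IGFBP4 was not tested.

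On control replicate 4 the IGFBP4 level was 7.22 above the mean of the other controls. The leukocyte marker PTPRC stood at 5.15 on that array, against a mean of -4.37 on the other controls and -4.03 on the 11 treated arrays. CD68, the other of the 2 leukocyte markers on the array, was at -6.11 and not above background there. The adrenocortical marker sum was 5.49 on control replicate 4, 6.14 to 6.89 on the other controls and 6.05 to 6.71 on the treated arrays. All 11 adrenocortical markers were lower on that array than on average in the other controls, STAR for example at 4.58 against 5.63. Whether RNA of other cells bears on the IGFBP4 value was not tested.

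The wider pathway was read from lists of symbols paired with RefSeq identifiers. The first list held 10 further genes, of which 8 were tested and 0 passed in any comparison. Besides ligands, receptors and binding proteins it held the protease PAPPA and the RNA-binding proteins IGF2BP1, IGF2BP2 and IGF2BP3. For combined against control, 3 of the 8 had an unadjusted p under 0.05, all higher, where 13.8% of all transcripts did. The list's median change was 0.29, against 0.09 over all transcripts. The smallest p belonged to IGF2BP1 at 0.39 and IGFALS, the acid-labile subunit that carries IGF in serum, at 0.54 (adjusted p = 0.284 and adjusted p = 0.296, limma). The third was PAPPA, at 0.62 (adjusted p = 0.327, limma), or 0.25 without combined replicate 4. It lies outside the naming rule for this list and was named after its value was seen. IGF2BP1 also had an unadjusted p under 0.05 for mitotane, at 0.32 (adjusted p = 0.713, limma), against the same controls. For 9-cisRA it was IGF2BP2, at -1.34, or -0.55 without control replicate 4. Next by p were IGF2BP3 for mitotane, at 0.18 and 0.03 without control replicate 4, and IGFBP7, a secreted relative of the binding proteins, for 9-cisRA, at 0.72 and 0.41 without that control.

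Of 28 genes of IGF1R signalling through IRS proteins, PI3K, AKT, mTOR and RAS-MAPK, 26 were tested and 0 passed. Their median change was 0.07 for mitotane, 0.07 for 9-cisRA and 0.03 for combined treatment. An unadjusted p under 0.05 was reached by 0, 0 and 2 of the 26, against 6.04%, 3.51% and 13.8% of all transcripts. Both were higher under combined treatment, namely RPTOR, the mTORC1 scaffold, at 0.56 (adjusted p = 0.243, limma) and TSC1, an inhibitor of mTORC1, at 0.38 (adjusted p = 0.314, limma). For mitotane and for 9-cisRA the smallest p belonged to the adaptor GRB2, at 0.34 in both, and to the PI3K catalytic subunit PIK3CA, at -0.63 and -0.62. Both comparisons use the same controls, and without control replicate 4 these values were 0.12 for GRB2 in both, and -0.14 and -0.13 for PIK3CA.

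Of 23 other imprinted genes, 14 were on the array under the listed identifier, 13 were tested and 0 passed. The median change was -0.12, 0.01 and 0.07 for mitotane, 9-cisRA and combined treatment. For 9-cisRA, 1 of the 13 was higher and 1 lower at an unadjusted p under 0.05, where 3.51% of all transcripts reached it. They were KCNQ1, a potassium channel subunit, at 1.62 ± 0.73, and KCNQ1OT1, the non-coding RNA transcribed antisense to it, at -0.54 ± 0.19 (both with adjusted p = 0.744, limma). They were 1.38 and -0.69 without control replicate 4. The same genes had the smallest p for mitotane, at -0.77 and -0.30, and DIRAS3 (0.57) and NNAT (0.41) for combined treatment, none with an unadjusted p under 0.05. DIRAS3 was at 0.13 without control replicate 4 and NNAT at 0.11 without combined replicate 2. KCNQ1OT1 lies in the same imprinted cluster as CDKN1C, whose change in that comparison was 0.06.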

How the data were processed

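The deposited scanner files hold 1 intensity per spot from 1-colour Agilent arrays (human design, Cy3). Per the file headers the processed signal is background-subtracted and detrended within the array by Feature Extraction 11.0.1.1; the submitters' processing notes give 11.0.1. The authors' series value table holds log2 values, with processing not given in the sources used here. Array-to-array differences in it matched those of the log2 scanner signals (r = 1 when rounded). The median of a column ran from -0.43 (control replicate 4) to 0.06. Each member probe was centred there on its median over 16 arrays, with middle values of -0.004 and 0.004 for IGF2, for example. The centring of other probes was not checked.

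Here log2 of the signal was shifted so that the 75th percentile of 43118 spots, controls left out, was 0 on each array. Outlier spots were dropped and saturated ones kept. The brightest of several probes stood for an identifier (4369 of 29094). A transcript was tested if some group had it well above background on all its arrays (20216, or 69.5%). The fit was limma 3.58.1 in R 4.3.3 (with version 1.17.8 of data.table), with matplotlib 3.10.9 for plots, two-sided, with an adjusted p threshold of 0.05.

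On simulated data for 9-cisRA against control over 20216 transcripts, the fit recovered 51% of 2-fold and 86% of 4-fold changes, with 17 false calls. These shares hold for the simulated data only. On the real arrays the 2.00-fold IGFBP6 change for 9-cisRA against control did not pass. Genes and lists were chosen with earlier results of these data known. The rule for naming took all members, up to 2 genes per list and comparison with the smallest p, and the 3 genes most like IGF2. Symbols of list genes come from a written pairing with RefSeq identifiers, not from the files. Slides, read from the codes in the sample titles, pair the arrays. Deviations on the same slide correlated at -0.27 to 0.37 (21 pairs, median 0.01). On different slides they correlated at -0.42 to 0.48 (63 pairs, median -0.02), so arrays sharing a slide were not visibly more alike. Reference sequences at hand were mouse and matched 0 identifiers, so none is printed. The scanner files have no mean signal, so normexp used spot medians. Combined replicate 3 was read only in the value table. Alternatives covered normalisation, filter, probe choice, array weights, the slide as a block, the value table and leaving out each array.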

Additional observations from a re-analysis of the deposited data

Results flagged for a closer look

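Over 36 sets of 4 arrays (12 probes in control, mitotane and 9-cisRA), 3 held an array far from the other 3, where chance alone marks about 1 in 20, or 1.8. IGF2 in 9-cisRA replicate 3 was at 8.39, with the next array at 8.19. IGF2R in mitotane replicate 1 was at 0.054, with the next at -0.16. IGFBP6 in mitotane replicate 2 was at -1.72, with the next at -3.06. Sets of 3 arrays are too small for this rule, which leaves out combined treatment.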

How the results depend on the processing

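Of 20216 transcripts, array weights called 3, 4, 5788, 103 and 2003 for mitotane, 9-cisRA and combined against control and combined against mitotane and 9-cisRA. There was 1 call for combined against mitotane in the value table of 16 arrays without control replicate 4. Leaving out 1 array gave 0 to 1 call there and 0 to 8 for mitotane against 9-cisRA, the upper ends without mitotane replicate 2. With the replicate block (slide as a term) 0 transcripts passed in all 7 comparisons, and the paired fit changed no call at the adjusted threshold. Its unadjusted p for IGFBP6 was 0.0403 for combined against 9-cisRA and 0.0369 for mitotane against 9-cisRA (limma). In the main fit both were above 0.05. With array weights, changes turned negative against control for mitotane in H19 (-0.135), CDKN1C (-0.075), DLK1 (-0.257) and IGF2R (-0.19). For 9-cisRA they did so in IGF2 (-0.072), CDKN1C (-0.184), DLK1 (-0.037), IGF2R (-0.194) and IGFBP2 (-0.001). For combined treatment they did so in CDKN1C (-0.089), DLK1 (-0.086), IGF2R (-0.505, past the threshold) and IGFBP2 (-0.115). In the value table without control replicate 4 the negative ones were CDKN1C (-0.18), DLK1 (-0.21) and IGF2R (-0.003) for mitotane. They were IGF2 (-0.009), CDKN1C (-0.22), DLK1 (-0.009), IGF1R (-0.030) and IGF2R (-0.071) for 9-cisRA, and CDKN1C (-0.18), IGF2R (-0.006) and IGFBP2 (-0.055) for combined treatment. With control replicate 4 left out, chosen after seeing the data, the second IGF2 probe gave -0.005, -0.154 and -0.105 for mitotane, 9-cisRA and combined treatment, and the second DLK1 probe -0.124 for mitotane and -0.184 for combined. Leaving out 1 array, mitotane changes ran from -0.19 to 0.12 (DLK1), -0.048 to 0.121 (H19) and -0.16 to 0.28 (CDKN1C). For 9-cisRA they ran from -0.027 to 0.075 (IGF2), -0.032 to 0.253 (IGF1R), -0.22 to 0.22 (CDKN1C), -0.011 to 0.306 (DLK1) and -0.074 to 0.253 (IGF2R). For combined treatment they ran from -0.18 to 0.29 (IGF2R), -0.12 to 0.32 (CDKN1C) and -0.060 to 0.412 (IGFBP2). The cause was not tested. The IGFBP6 change for 9-cisRA stayed positive in all alternatives run, from 0.63 with normexp to 1.13 with quantile normalisation, with adjusted p between 0.17 and 0.98.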

Other observations

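Combined replicate 3, read from the authors' deposited value table of log2 values, lay at 0.443 for IGF2, just above the other combined arrays there (-0.189 to 0.429). IGFBP6 was at 0.544 on it, above the other combined arrays (-0.26 to 0.13) and within the range of 9-cisRA (0.304 to 0.921). IGF1R was at -0.14, below the other combined arrays (-0.005 to 0.42). IGFBP4 was at 1.96, against -1.28 to 0.70. H19 was at 0.41, within theirs (-0.28 to 0.41).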
